A study of Mus musculus with 4 samples.

Results

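A set of 39 genes that make, remove or respond to reactive oxygen species was examined in mouse liver: the NADPH oxidase Nox4 with Cyba and Duox2, the peroxiredoxins, and the superoxide dismutases, catalase, glutathione, thioredoxin and NRF2 genes around them. Members were the 60 non-control probes whose gene name on the array equalled a listed symbol, and all 39 genes and 57 of these probes could be tested, among 16131 genes and 20373 probes tested on the array. The 52 member probes whose RefSeq accession was in the RefSeq table all carried the same symbol there.

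Hepatic RNA was compared 1 week after injection of an adeno-associated virus, AAV_Cre, in mice labelled liver-specific Trib1 knockouts or AAV_Null in mice labelled wild type. Every mouse in both groups was a female of strain C57B/6, aged 8 to 10 weeks, with both copies of Trib1 floxed, fed chow and then fasted for 4 hours. Cre excises floxed sequence, and Trib1 encodes a pseudokinase that directs C/EBPα to degradation. The promoter that drives Cre and whether an RNA came from 1 animal or a pool are not given in the sources used here, and RNA was from whole liver.

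Each of 4 Agilent 2-colour arrays carried 1 AAV_Cre RNA and 1 AAV_Null RNA, and AAV_Cre was labelled with Cy5 on arrays 1 and 2 but with Cy3 on arrays 3 and 4. Of 43020 spots per array, 53.1% to 55.0% were well above background in the AAV_Cre channel and 51.0% to 58.7% in the AAV_Null channel, and 0 were saturated. Of 14 hepatocyte markers all 14 were tested and 1 was called lower, Trf, which had 0.27 and 0.33 on arrays 1 and 2 but -1.18 and -1.51 on arrays 3 and 4. Their summed log2 intensity was 20.37 to 21.19 in AAV_Cre RNA and 20.84 to 21.21 in AAV_Null RNA. Trib1 itself was higher in RNA labelled AAV_Cre at both RefSeq probes, with log2 ratios of 0.94 ± 0.08 and 1.29 ± 0.11 (SE, n = 4 arrays) and limma p adjusted over probes of 0.0239 and 0.0242. At each, AAV_Cre intensities lay above all AAV_Null intensities and 4 of 4 arrays were higher. Its Ensembl probe had -0.047 ± 0.049 (adjusted p = 0.618 in limma). This probe was dimmer, with mean log2 intensities of 7.61 in AAV_Cre and 7.66 in AAV_Null RNA. At the RefSeq probes the means were 13.15 and 12.65 in AAV_Cre and 12.21 and 11.36 in AAV_Null RNA, in the order above. Where the floxed part lies relative to these probes is not given in the labels, so directions below are those of the RNA as labelled. The fit includes a dye effect, so p-values measure the spread between arrays with the same dye labelling and not the difference between the labellings. Nothing in the labels says that the 4 RNAs of a treatment came from separate animals, so this spread may be technical.

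NADPH oxidases pass electrons from NADPH to oxygen. NOX4 needs p22phox, the product of Cyba, and releases mainly hydrogen peroxide without a stimulus, in hepatocytes and in stellate cells among others. Peroxiredoxins, glutathione peroxidases and catalase remove hydrogen peroxide, thioredoxin and glutathione recharge the first groups, and the transcription factor NRF2 (Nfe2l2), held back by KEAP1, turns on many of these genes through antioxidant response elements.

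The results turn on Nox4, Prdx4 and Nfe2l2, and the sequences that measured them are shown because the probes of Nox4 did not give 1 answer. Positions are on mm9, as the array files give them. The Nox4 probe that starts at base 1077 of NM_015760 spans a splice junction, with its ends at chr7:94472458-94487478 on the plus strand, and is given in full. A second Nox4 probe starts at base 3411 of NM_015760, at chr7:94547025-94547084, and the last starts at base 3645 of an Ensembl transcript, at chr7:94547113-94547172. The Prdx4 probe lies at base 907 of NM_016764, at chrX:151758471-151758530 on the minus strand, and the Nfe2l2 probe at base 2214 of NM_010902, at chr2:75513771-75513830 on the minus strand. The first 30 of the 60 bases are given for these 4 probes.
Nox4 base 1077: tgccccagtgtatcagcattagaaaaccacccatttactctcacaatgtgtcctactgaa
Nox4 base 3411: ccttgcctaatctaaactccagtgcatgtt
Nox4 base 3645: cacacatatagaagacagcttcatttcttt
Prdx4 base 907: gctaaactgaaaagtacttcagttatgatg
Nfe2l2 base 2214: ctcaagttaatttcttaggcaccatttggg

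Of the 39 members 3 passed the threshold, an adjusted p of 0.05 in limma over all genes: Nox4 and Prdx4 fell and Nfe2l2 rose. That is 7.69% of the members, against 2.75% of all genes, of which 1.78% rose and 0.973% fell. Members were chosen with earlier results of these data known, so this share is not a test of the set. The other 36 had log2 ratios of AAV_Cre over AAV_Null between -0.21 and 0.34. The median over the 39 members was -0.006, against -0.002 over all genes. In size, 33 members (84.6%) lay within 0.25 of 0 on the log2 scale, against 86.4% of all genes. The plot of members among all genes shows the 3 called genes outside the range of the other members. Genes that did not pass reached from -1.23 to 1.51 over the whole array, so Prdx4 and Nfe2l2 lay within the range of uncalled genes.

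**Figure D1:**
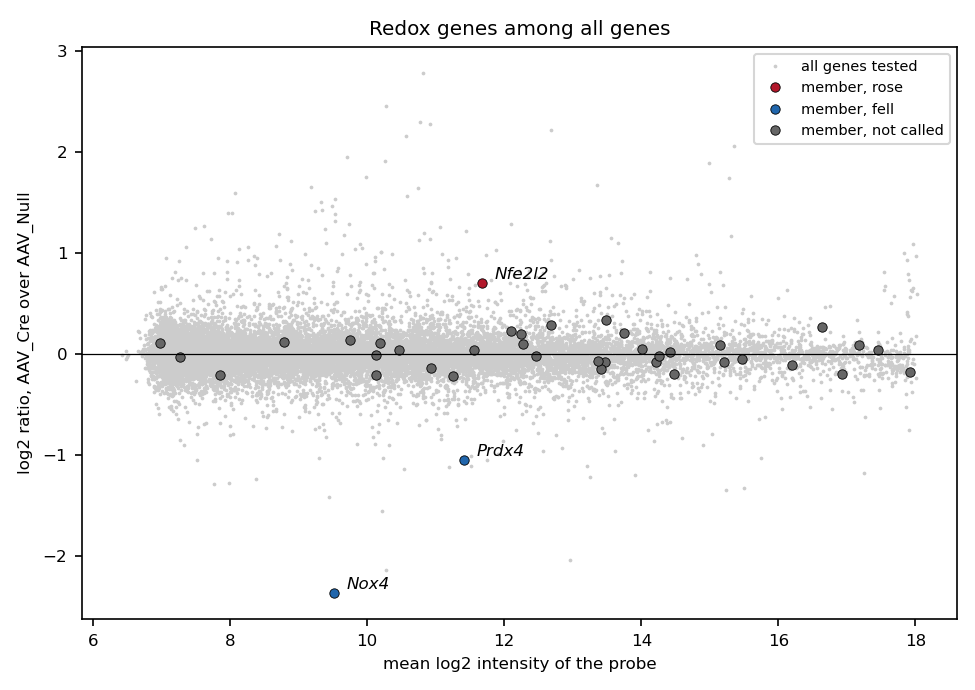
Log2 ratio of AAV_Cre over AAV_Null against mean log2 intensity of the probe that stands for each gene, for 16131 genes (grey) and the 39 redox members (circles, coloured by call). Nox4 at -2.36, Prdx4 at -1.05 and Nfe2l2 at 0.70 lie outside the range of the 36 other members, which is -0.21 to 0.34.

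Nox4 fell to 0.194 of the AAV_Null level. At the probe of base 3411, the brightest of the gene, the log2 intensity was 8.06, 8.34, 8.54 and 8.42 in AAV_Cre RNA on arrays 1 to 4, against 10.86, 10.86, 10.73 and 10.38 in AAV_Null RNA. The highest AAV_Cre value lay below the lowest AAV_Null value. The log2 ratios were -2.80, -2.52, -2.19 and -1.95 on the 4 arrays, and the fitted ratio was -2.36 ± 0.08 (SE, n = 4 arrays), with 0.00798 as its adjusted p in limma. In whole liver, fewer cells that express a gene and less RNA per cell cannot be told apart, here and for the genes below. Without array 2 the adjusted p was 0.0692 at a ratio of -2.44, and without array 4 it was 0.0509 at -2.42. Each of these fits called 0 of all genes.

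The Nox4 probe at base 3645 fell with it. Its log2 intensity was 7.41, 7.33, 7.45 and 7.43 in AAV_Cre RNA on arrays 1 to 4, against 9.31, 9.55, 9.39 and 9.08 in AAV_Null RNA. The groups did not overlap, and the log2 ratio was -1.93 ± 0.09 (SE, n = 4), with 0.00975 as its limma p adjusted over all probes, where 2.37% of probes passed. Its uncorrected signal was 98.9 to 186 in AAV_Cre channels and 358 to 941 in AAV_Null channels, over local backgrounds of 13 to 69. The AAV_Cre channels were therefore dim. This probe lies 28 bases downstream of the one at base 3411, so both measure the same end of the gene.

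The splice-spanning probe at base 1077 did not pass. Its log2 intensity was 7.19, 6.92, 7.55 and 7.02 in AAV_Cre RNA on arrays 1 to 4, against 7.74, 7.57, 7.48 and 6.63 in AAV_Null RNA, and the groups overlapped. The log2 ratios were -0.56 and -0.65 on arrays 1 and 2 but 0.072 and 0.39 on arrays 3 and 4, and the fit gave -0.19 ± 0.07 (SE, n = 4), with 0.236 as its limma p adjusted over all probes. Although all 8 channels were marked as well above background, its uncorrected signal was 69.8 to 213 in AAV_Cre channels and 100 to 239 in AAV_Null channels, over local backgrounds of 28 to 106. For comparison, the uncorrected signal at base 3411 was 223 to 388 in AAV_Cre channels and 1054 to 2697 in AAV_Null channels. The splice-spanning probe ends 59546 bases before the probe at base 3411 starts. Averaging the 3 probes gave Nox4 -1.49 at an adjusted p of 0.0144.

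**Figure D2:**
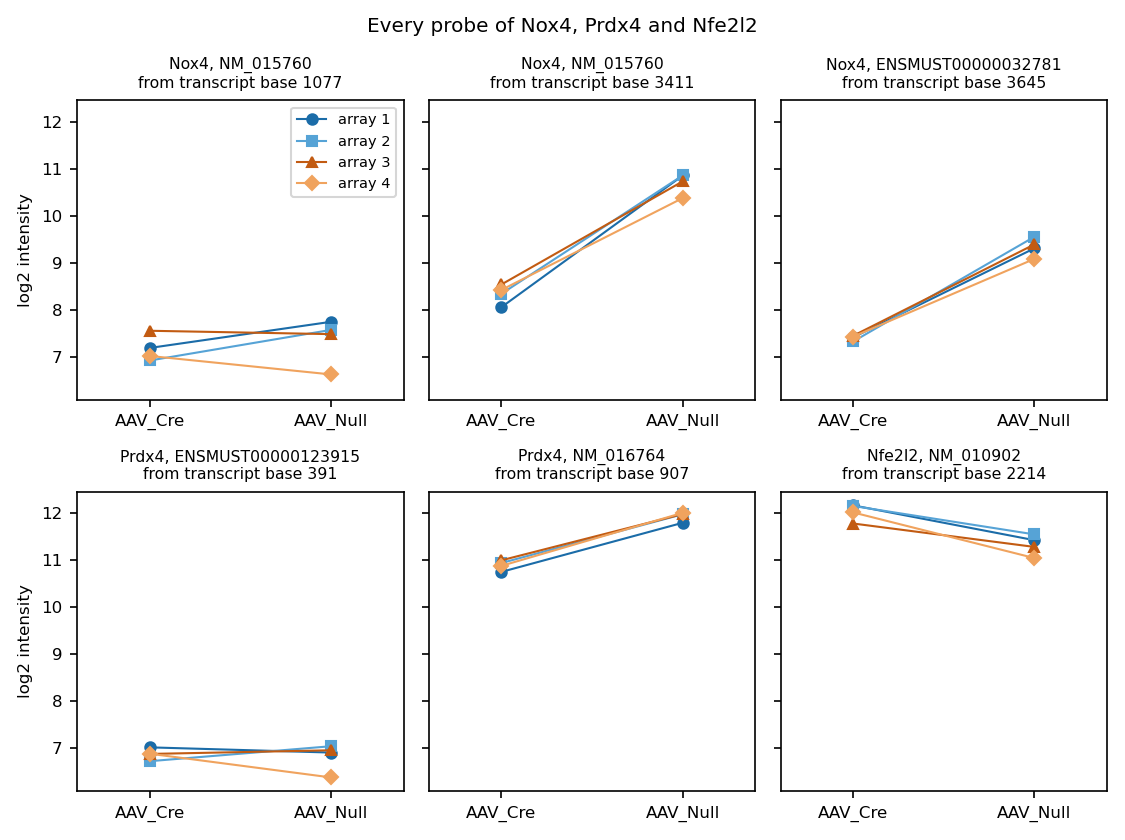
Normalised log2 intensity in the AAV_Cre and the AAV_Null RNA of each array (joined points) for every probe of Nox4, Prdx4 and Nfe2l2. The AAV_Cre values lie below the AAV_Null values at 2 of the 3 Nox4 probes and at the RefSeq probe of Prdx4, lie above them for Nfe2l2, and overlap with them at the dim Nox4 and Prdx4 probes.

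The partners of the oxidase did not pass. Cyba, the p22phox subunit that NOX4 shares with the phagocyte oxidase, had log2 ratios of -0.18, -0.22, 0.24 and -0.64 on arrays 1 to 4 and a fitted ratio of -0.20 ± 0.15 (SE, n = 4; adjusted p = 0.485 in limma). It was the member with the widest error. Macrophage markers had medians of -0.33, -0.24, 0.36 and -0.64 on the same arrays, with 0 of 11 called and summed log2 intensities of 14.96 to 15.95 in AAV_Cre RNA and 15.44 to 16.11 in AAV_Null RNA. Their part in the Cyba values was not tested. Duox2, the dual oxidase of thyroid and gut epithelium, was near background, with 3 of 4 channels well above it in each group, and had 0.11 ± 0.13 (SE, n = 4). Of 14 other oxidase subunits and partners 8 were tested and 0 passed, with a median of -0.083, and Duox1 had the smallest p at 0.20 ± 0.05 (adjusted p = 0.109). The phagocyte oxidase Cybb had -0.078.

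Markers of stellate cells, which also express Nox4, did not fall. Of 13 tested stellate cell and matrix markers 1 rose (Col3a1, log2 ratio 0.47) and 0 fell, with a median of 0.28. Their summed log2 intensity was 16.12 to 16.57 in AAV_Cre RNA and 15.78 to 16.41 in AAV_Null RNA. Their part in the Nox4 result was not tested.

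Among the peroxiredoxins Prdx4 alone passed. PRDX4 is the member of the family that resides in the endoplasmic reticulum and can be secreted, and it removes the hydrogen peroxide formed during oxidative protein folding. At its RefSeq probe the log2 intensity was 10.75, 10.94, 10.997 and 10.88 in AAV_Cre RNA on arrays 1 to 4, against 11.79, 11.98, 11.98 and 12.01 in AAV_Null RNA. The groups were separated by more than the spread within either. The log2 ratios of -1.04, -1.04, -0.98 and -1.13 gave -1.05 ± 0.05 (SE, n = 4), 0.484 times the level in AAV_Null RNA, with 0.0107 as its adjusted p in limma. Its call was lost without array 1, 2 or 4, with adjusted p of 0.0994, 0.123 and 0.0634 and ratios of -1.05, -1.05 and -1.01. Over all genes these fits called 13, 0 and 0 in the same order.

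The second Prdx4 probe, at base 391 of an Ensembl transcript, could not be tested. It was well above background in 0 of 4 AAV_Cre channels and 1 of 4 AAV_Null channels. Its log2 intensity was 6.73 to 7.02 in AAV_Cre RNA and 6.38 to 7.04 in AAV_Null RNA, which overlapped.

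The other peroxiredoxins had smaller ratios, and their direction was not shared. Prdx5, found in mitochondria, peroxisomes and cytosol, had log2 ratios of 0.29, 0.42, 0.15 and 0.21 on arrays 1 to 4 and a fitted 0.27 ± 0.05 (SE, n = 4; adjusted p = 0.0838 in limma). It was higher in AAV_Cre RNA on every array, and its second probe had 0.33 ± 0.05. Mitochondrial Prdx3 had 0.25, -0.048, 0.36 and 0.34, with a fitted 0.23 ± 0.07 (adjusted p = 0.154). Cytosolic Prdx1 and Prdx2 had fitted ratios of -0.043 ± 0.060 and -0.080 ± 0.055. Prdx6, a 1-cysteine enzyme that also has phospholipase activity, had 0.20 and 0.49 on arrays 1 and 2 and -0.25 and -0.073 on arrays 3 and 4, and its 4 probes had fitted ratios between 0.091 and 0.22. Srxn1, the sulfiredoxin that restores over-oxidised peroxiredoxins, had 0.17, 0.18, 0.27 and 0.55 and a fitted 0.29 ± 0.07 (adjusted p = 0.1005). Sesn2, a stress-induced sestrin, had 0.11 ± 0.05, and Msra, a methionine sulfoxide reductase measured on 3 arrays, had -0.074 ± 0.074.

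**Figure D3:**
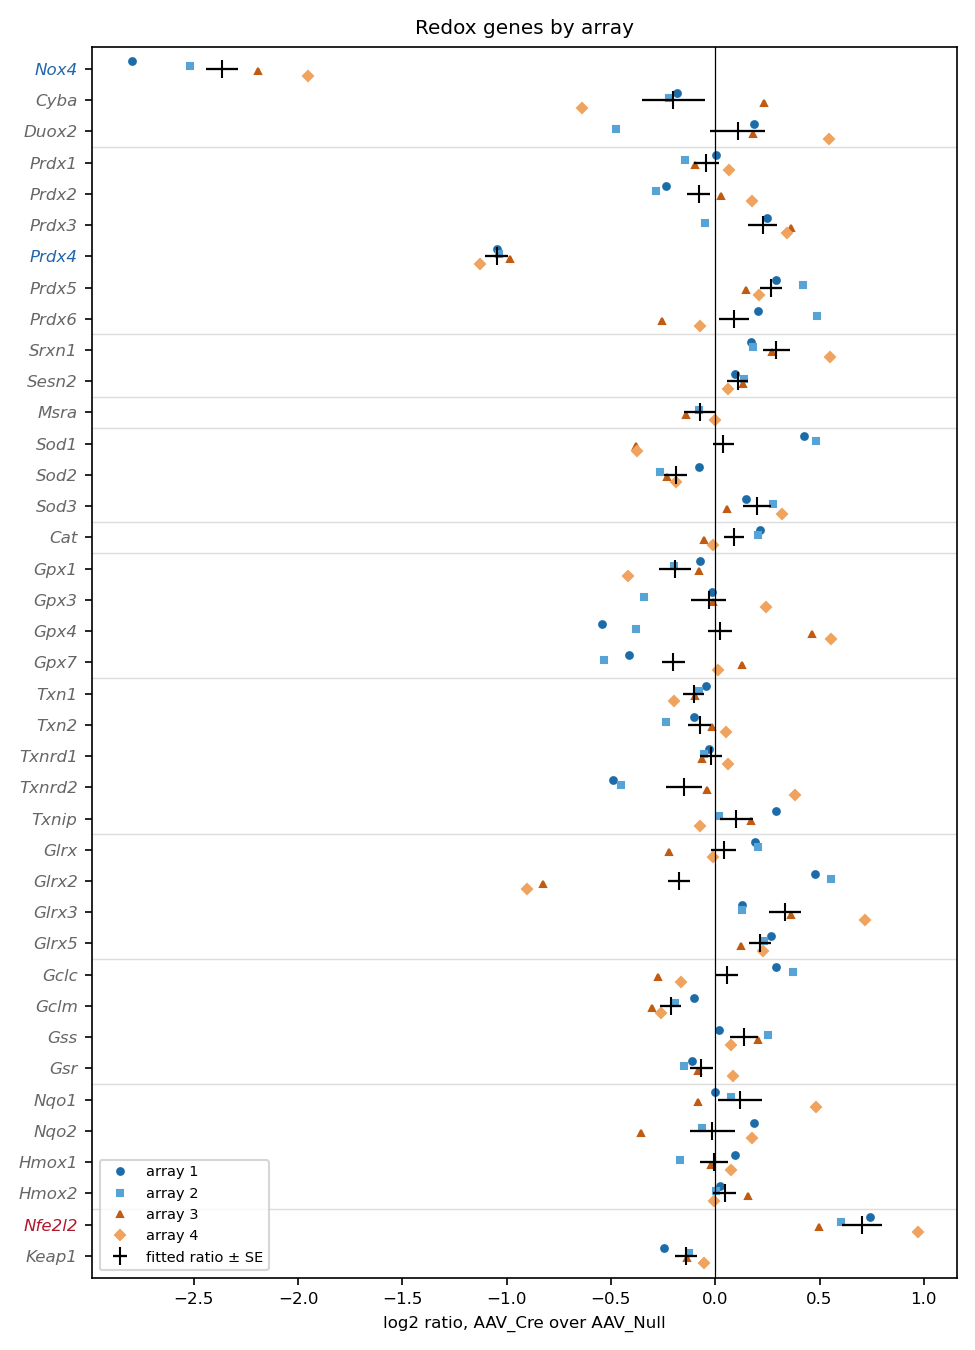
Log2 ratio of AAV_Cre over AAV_Null for each of the 39 members on arrays 1 to 4 (points) with the fitted ratio and its SE (black cross), grouped by role, with called genes in colour. Nox4, Prdx4 and Nfe2l2 keep to 1 side of 0 on all 4 arrays and their fitted ratios lie outside those of the other 36 members, while single arrays of Nfe2l2 (0.50 to 0.97) overlap with those of Glrx3 (up to 0.72), and Sod1, Gpx4 and Glrx2 lie on opposite sides on arrays 1 and 2 and on arrays 3 and 4.

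Nfe2l2, which encodes NRF2, rose 1.63-fold. Its log2 intensity was 12.16, 12.15, 11.78 and 12.01 in AAV_Cre RNA on arrays 1 to 4, against 11.42, 11.55, 11.28 and 11.04 in AAV_Null RNA. The lowest AAV_Cre value lay above the highest AAV_Null value. The log2 ratios of 0.74, 0.60, 0.50 and 0.97 gave 0.70 ± 0.09 (SE, n = 4), at an adjusted p of 0.0419 in limma. The gene had 1 probe, and the call was lost when any array was left out. Without arrays 1, 2, 3 and 4 the adjusted p in limma was 0.213, 0.232, 0.0624 and 0.0823, at ratios of 0.67, 0.74, 0.82 and 0.59. Over all genes these fits called 13, 0, 37 and 0 in the same order. Keap1, the adaptor through which NRF2 is degraded, had -0.24, -0.13, -0.14 and -0.052 on arrays 1 to 4 and a fitted -0.14 ± 0.05 (adjusted p = 0.225), lower on every array without passing.

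No member passed among 9 grouped here as genes that NRF2 is known to drive, with Nfe2l2 itself not counted. Of these 9, a grouping made after their values were seen, 0 rose and 0 fell. Their median log2 ratio was -0.021 and 6 of the 9 ratios were below 0, of which Prdx1, Txn1, Txnrd1, Gsr and Hmox1 turned to between 0.0026 and 0.071 when arrays were centred on the median in place of loess. Nqo1, a quinone reductase and a standard readout of NRF2, had -0.002, 0.076, -0.081 and 0.48 on arrays 1 to 4 and a fitted 0.12 ± 0.10 (SE, n = 4), with a 95% interval from -0.16 to 0.40. Hmox1, haem oxygenase 1, had -0.006 ± 0.066 with an interval from -0.18 to 0.17. Txnrd1, cytosolic thioredoxin reductase, had -0.021 ± 0.053 with an interval from -0.16 to 0.12. The catalytic and modifier subunits of glutamate-cysteine ligase, which sets the rate of glutathione synthesis, had 0.056 ± 0.053 for Gclc and -0.21 ± 0.05 for Gclm (adjusted p = 0.109). Gclm was lower in AAV_Cre RNA on 4 of 4 arrays, at -0.10, -0.19, -0.30 and -0.26. The highest upper bound among the 9 was that of Srxn1 at 0.47, or 1.38-fold, below the fitted ratio of Nfe2l2. The 95% interval of Nfe2l2 was 0.46 to 0.95, so the intervals of Srxn1 and Nfe2l2 overlapped. Whether these ratios differ from that of Nfe2l2 was not tested.

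A wider list of NRF2 targets gave 1 gene each way. Of 23 tested, Cbr1, a carbonyl reductase, rose by 0.50 ± 0.06 (SE, n = 4; adjusted p = 0.0322 in limma), and Osgin1, an oxidative stress-induced growth inhibitor, fell by 0.80 ± 0.09 (adjusted p = 0.0319). The median of the list was -0.11. Nearest to the threshold among the others were Abcc4, a drug and bile acid exporter, at 0.40 (adjusted p = 0.0506) and Ugdh, which makes UDP-glucuronate, at 0.37 (adjusted p = 0.0767), each higher on 4 of 4 arrays. The mu-class glutathione transferases Gstm3 and Gstm1 had -0.46 (adjusted p = 0.0970) and -0.36 (adjusted p = 0.138), each lower on 4 of 4 arrays. Of 12 partners and regulators of NRF2, 0 passed, and Maff, a small Maf protein, had the smallest p at -0.49 ± 0.07 (adjusted p = 0.0506). Its ratios were -0.11 and -0.13 on arrays 1 and 2 and -1.01 and -0.69 on arrays 3 and 4.

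The promoters of the 3 called genes are shown because NRF2 and C/EBPα, the factor named in the study's title, are known to bind DNA through short motifs. They are the 250 bases before the start site in RefSeq, build GRCm38.p6, at chr7:87246399-87246648 on the plus strand for Nox4, chrX:155338461-155338710 on the minus strand for Prdx4 and chr2:75704664-75704913 on the minus strand for Nfe2l2. Capitals mark matches to TGACNNNGC, the core of the antioxidant response element, or to TTGCNNAA, a C/EBP half-site pair, on either strand.
Nox4: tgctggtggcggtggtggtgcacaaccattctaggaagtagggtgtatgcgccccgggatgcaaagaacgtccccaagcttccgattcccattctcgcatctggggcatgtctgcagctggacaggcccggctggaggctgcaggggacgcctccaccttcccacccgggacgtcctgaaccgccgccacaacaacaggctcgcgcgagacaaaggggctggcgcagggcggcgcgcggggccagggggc
Prdx4: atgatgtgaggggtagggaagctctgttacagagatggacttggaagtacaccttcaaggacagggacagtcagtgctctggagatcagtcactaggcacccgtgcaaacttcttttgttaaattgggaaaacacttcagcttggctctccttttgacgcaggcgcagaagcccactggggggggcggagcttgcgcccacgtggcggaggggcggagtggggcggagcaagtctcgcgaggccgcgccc
Nfe2l2: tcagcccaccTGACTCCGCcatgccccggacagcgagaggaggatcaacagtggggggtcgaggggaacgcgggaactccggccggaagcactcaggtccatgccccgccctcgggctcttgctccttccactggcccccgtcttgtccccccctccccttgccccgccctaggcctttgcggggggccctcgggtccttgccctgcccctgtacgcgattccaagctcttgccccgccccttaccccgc

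Nfe2l2 had 1 match to the element core, starting 240 bases before its start site on the strand of the gene, and Nox4 and Prdx4 had none of either motif in this window. Of 39 members 33 had a promoter in the table, 45 promoters in all, and 6 of these (13.3%) held the element core, against 10.2% of all 32851 promoters. They belonged to Gclm, Nfe2l2, Prdx1, Sesn2, Sod1 and Txnrd1. The C/EBP motif was in 1 member promoter (2.22%), that of Prdx3, against 9.56% of all promoters. A match describes the letters in the window and does not show a bound site.

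No superoxide dismutase, catalase or glutathione peroxidase passed. Sod2, the mitochondrial manganese enzyme, had log2 ratios of -0.079, -0.26, -0.23 and -0.19 on arrays 1 to 4 and a fitted -0.19 ± 0.06 (SE, n = 4; adjusted p = 0.154 in limma). Extracellular Sod3 had 0.15, 0.28, 0.057 and 0.32 and a fitted 0.20 ± 0.07 (adjusted p = 0.186). Each kept its sign on 4 of 4 arrays. Catalase had 0.089 ± 0.049 at its brighter probe and 0.18 ± 0.05 at the other. Gpx1, the abundant cytosolic glutathione peroxidase, had -0.19 ± 0.08, and Gpx4, which reduces lipid hydroperoxides, had 0.024 ± 0.057. Gpx7, of the endoplasmic reticulum like PRDX4, had -0.20 ± 0.06 (adjusted p = 0.136), with -0.41 and -0.53 on arrays 1 and 2 and 0.13 and 0.013 on arrays 3 and 4. Gpx3, the plasma enzyme, was dim and had -0.031 ± 0.083.

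Among other selenoproteins and glutathione peroxidases 1 of 10 passed. Sepp1, the selenoprotein that liver secretes to carry selenium, fell by 0.62 ± 0.06 (SE, n = 4; adjusted p = 0.0227 in limma), with ratios of -0.30, -0.45, -0.80 and -0.94 on arrays 1 to 4.

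No thioredoxin, glutaredoxin or glutathione gene passed. Of 5 thioredoxin genes 0 passed, with fitted ratios from -0.15 for Txnrd2, mitochondrial thioredoxin reductase, to 0.10 for Txnip, the thioredoxin inhibitor. Txn1 had -0.10 ± 0.05 and was lower on every array, but had 0.0091 with median centring. Glrx3, an iron-sulfur cluster chaperone, had 0.13, 0.13, 0.36 and 0.72 on arrays 1 to 4 and the highest ratio among members that did not pass, 0.34 ± 0.08 (SE, n = 4; adjusted p = 0.0999 in limma). That probe lies on chromosome 4 in the array files, while the probe of RefSeq Glrx3 lies on chromosome 7 and had 0.35 ± 0.08, and signals of like sequences cannot be told apart. Glrx5, which acts in mitochondrial iron-sulfur cluster assembly, had 0.21 ± 0.05 (adjusted p = 0.110) and was higher on 4 of 4 arrays. Gss, glutathione synthetase, had 0.14 ± 0.07 and Gsr, glutathione reductase, had -0.066 ± 0.056. Glrx had 0.040, Nqo2 had -0.014 and Hmox2, the constitutive haem oxygenase, had 0.045.

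NADPH, the electron donor of both oxidases and reductases, is supplied by a group in which 3 of 9 tested genes rose and 0 fell. Me1, malic enzyme, rose by 1.098 ± 0.094 (SE, n = 4; adjusted p = 0.0215 in limma), G6pdx, the first enzyme of the pentose phosphate pathway, by 0.64 ± 0.06 and Pgd, the third, by 0.38 ± 0.05. Each was higher on 4 of 4 arrays. These enzymes also serve fatty acid synthesis, and the list was chosen with their rise known.

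Of 9 tested genes of cystine uptake and glutathione turnover, 2 fell and 0 rose. Slc3a2, the heavy chain of the cystine and amino acid exchangers, fell by 0.49 ± 0.06 (SE, n = 4; adjusted p = 0.0371 in limma), and Chac2, which degrades glutathione, fell by 0.53 ± 0.08 (adjusted p = 0.0477). Of 9 other thioredoxin-like and sestrin genes 0 passed, and Park7 had the smallest p at -0.19. Of 7 metal and radical scavengers 0 passed, and Mt2, a metallothionein, had -1.22, -1.57, 0.019 and -1.93 on arrays 1 to 4 with a fitted -1.18 ± 0.33 (adjusted p = 0.138). Over all 8 lists 4 of 87 tested genes rose and 4 fell, or 9.20%, against 2.75% of all genes. The lists were chosen with earlier results of these data known, so this share is not a test of them.

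**Figure D4:**
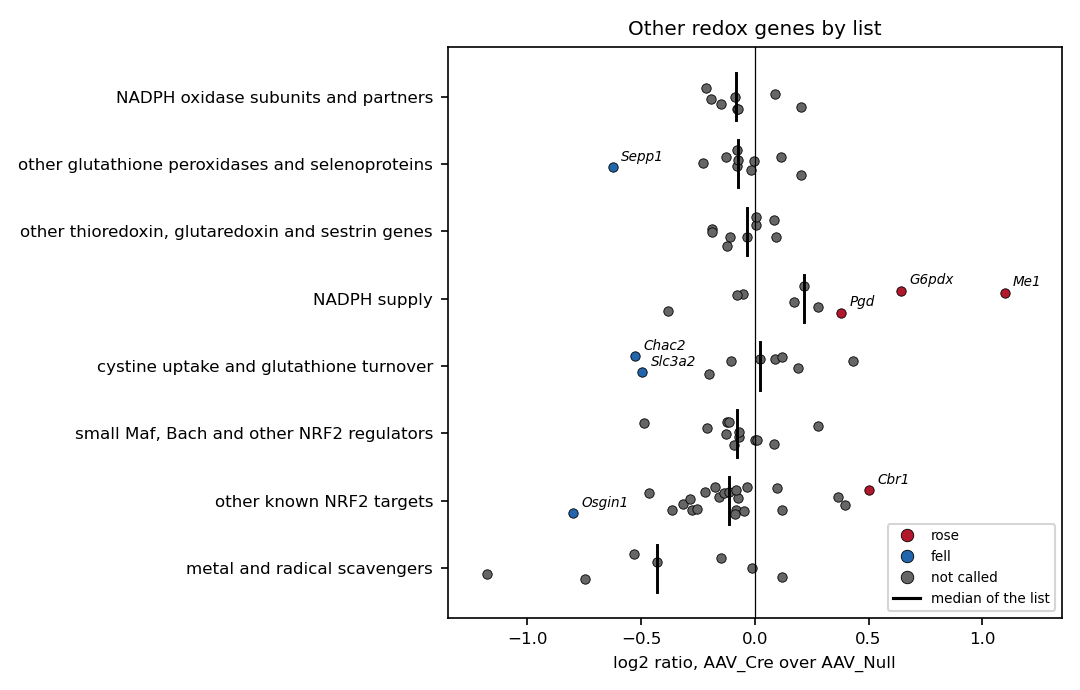
Log2 ratio of AAV_Cre over AAV_Null for 87 other redox genes in 8 lists (circles, coloured by call, spread vertically for sight), with the median of each list as a bar. Me1, G6pdx, Pgd and Cbr1 rose, Sepp1, Chac2, Slc3a2 and Osgin1 fell, and the remaining 79 genes did not pass.

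The direction of some members depended on the dye orientation. Across members that did not pass, Pearson's r of the ratios was 0.78 for arrays 1 and 2, 0.65 for arrays 3 and 4, and -0.33 to -0.19 for arrays of opposite orientation, over 36 genes (35 where array 1 enters) that are not independent and share their arrays. Over all genes r was 0.66, 0.49 and 0.067 to 0.19 in the same order. That set includes called genes, which the member set leaves out, so the values are not matched. A dye effect passed for 3 of 39 members, against 1.86% of the probes that stand for genes. The brightest of 3 probes of Glrx2, a mitochondrial glutaredoxin, averaged 0.52 on arrays 1 and 2 and -0.87 on arrays 3 and 4. Its mean log2 intensity was 17.92. The probe at base 3361 of NM_001038592, of mean log2 intensity 8.85, split in the same direction but less, with averages of 0.055 and -0.42. The probe at base 639, of mean log2 intensity 12.28, did not share the split, with -0.086 and 0.062. Why these probes of 1 transcript differ so in brightness was not tested. Sod1, the copper and zinc dismutase, averaged 0.45 and -0.38 in the same order. Gpx4 averaged -0.46 and 0.51. The fitted ratios of Glrx2 (-0.17), Sod1 (0.038) and Gpx4 (0.024) are means of opposite values. A difference between the RNA pairs cannot be told apart from the dye. The called genes kept their sign in both orientations: Nox4 averaged -2.66 on arrays 1 and 2 and -2.07 on arrays 3 and 4, Prdx4 -1.04 and -1.06, and Nfe2l2 0.67 and 0.73.

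**Figure D5:**
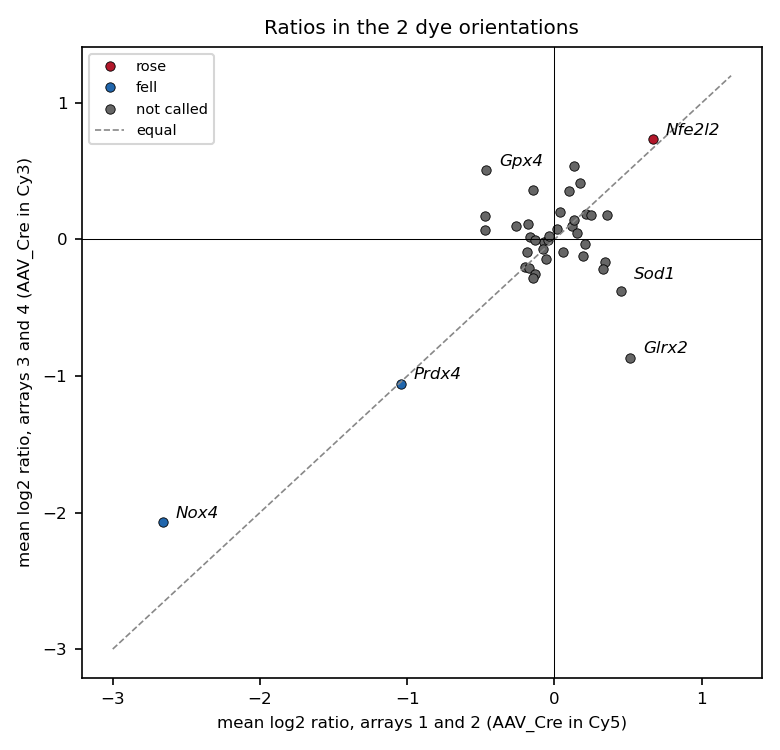
Mean log2 ratio of AAV_Cre over AAV_Null on arrays 3 and 4 (AAV_Cre in Cy3) against that on arrays 1 and 2 (AAV_Cre in Cy5) for the 39 members, with the line of equal values dashed. Prdx4 and Nfe2l2 lie near the line and Nox4 at -2.66 and -2.07, while Glrx2, Sod1 and Gpx4 have opposite signs in the orientations.

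Members short of the adjusted threshold lay in both directions. At an unadjusted p of 0.05 in limma 13 members (33.3%) passed, 7 higher and 6 lower, against 22.6% of all genes. The 3 called members are among these 13. Of 38 members measured on 4 arrays, 15 (39.5%) had the same sign on each, against 23.5% of all genes, and these 15 also include the called ones. Intensities of the groups did not overlap for 3 members, the called ones, or 7.69%, against 5.85% of all genes. Because members were chosen with earlier results known, these shares are not a test of the set either. Among 14 genes with several tested probes, Nox4 alone had fitted ratios that ranged over more than 0.17. Like fitted ratios did not mean like arrays: the Prdx6 probe at base 527 of NM_007453 had -0.12, -0.036, 0.44 and 0.57 on arrays 1 to 4, against 0.20, 0.49, -0.25 and -0.073 at base 1379.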

How the data were processed

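The authors measured each spot's intensity per dye, and the background beside it, in Agilent Feature Extraction 11.5.1.1, per the submitters' processing notes. The deposited log10 ratio of Cy5 over Cy3 was made by that software from its processed intensity, per the file headers. The authors also deposited log2 values. The submitters' processing notes list limma but not its steps. Their slope against the scanner log10 ratio was 3.34, 3.34, -3.29 and -3.41 on arrays 1 to 4 for bright spots, so their scale is log2 and their direction AAV_Cre over AAV_Null, with medians of -0.022, -0.038, 0.035 and 0.041. How they were normalised is not given in the sources used here.

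The main values started from mean spot intensity and median local background, with normexp correction (offset 50), loess within arrays and outlier spots left out, in limma 3.58.1 under R 4.3.3. Probes well above background in at least 3 of 4 channels of either treatment, with both orientations measured, were fitted with a dye and a treatment effect (lmFit, eBayes). The probe of highest mean intensity stood for a gene, with Benjamini-Hochberg adjustment over all genes and a threshold of 0.05. The 4 arrays limit the precision, with a median SE of 0.063 over genes and 0.059 over members, and SE do not hold a difference between the RNA pairs of opposite orientation. All 4 arrays were on 1 slide with 1 scan. Log2 intensities were taken per channel after Aquantile. The labels describe both a reverse transcription and a low-input kit (200 ng), without settling which applied. An exact sign test over 4 arrays cannot go below a two-sided p of 0.125. Probe sequences came from the array files and were not aligned to transcripts, so signals of close copies cannot be told apart.

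Members and lists were chosen with earlier results of these data known. Named were all members, every probe of Nox4 and Prdx4, Trib1, and per list up to 4 called genes of largest change or else the smallest p; Cybb, Abcc4, Ugdh, Gstm1, Gstm3, Trf, Col3a1 and the macrophage list were added after seeing values. The fit was first checked on simulated data. Alternatives numbered 20, with statmod 1.5.0 for the separate-channel fit. Figures used matplotlib 3.10.9.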

Additional observations from a re-analysis of the deposited data

How the results depend on the processing

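Nox4 and Prdx4 kept ratios below 0 and Nfe2l2 above 0 under each of 19 alternatives. Among these, the thresholds of 0.01 and 0.1 leave the ratios unchanged, so the signs there, and passing at 0.1, were fixed in advance. With all 4 arrays, Nox4 passed under 15 of 15 (-2.76 to -1.49), and Prdx4 (-1.06 to -1.02) and Nfe2l2 (0.70 to 0.75) under 14 each, the exception being a threshold of 0.01, where Prdx4 at -1.05 did not pass. Leaving out 1 array gave ratios of -2.44 to -2.29 for Nox4 and -1.08 to -1.01 for Prdx4. These fits have 1 fewer residual degree of freedom, and called 0 to 37 genes (0 to 22 higher, 0 to 15 lower), 0 to 2 members and 0 to 2 genes of the redox lists.

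Against 444 genes called (287 higher, 157 lower), 3 members and 8 list genes, the counts were 2497 (1276, 1221), 10 and 28 in a separate-channel fit, 1450 (804, 646), 8 and 21 with trend and robust empirical Bayes, 1401 (823, 578), 5 and 16 without background correction, 1375 (824, 551), 5 and 13 on the authors' deposited log2 values, and 1302 (754, 548), 5 and 15 at a threshold of 0.1. Scanner processed signals called 776 (540, 236), median centring 755 (527 higher), no filter 295 (95 lower), no dye effect 270 (183, 87) with 4 list genes, and a threshold of 0.01 called 12 (9, 3), 1 member and 0 list genes. The cause of these shifts was not tested. Of the 36 members that did not pass, 7 were called under at least 1 alternative (Prdx5 under 7, Gclm under 4, Glrx3 under 3) and 13 changed sign, none of them passing there. With median centring Gsr had 0.0026, Hmox1 0.011, Nqo2 0.072, Prdx1 0.071, Txn1 0.0091, Txn2 0.026 and Txnrd1 0.025. Scanner processed signals gave 0.18 for Gpx3, 0.014 for Hmox1 and 0.0051 for Nqo2, no background correction 0.071 for Gpx3 and 0.00028 for Hmox1, and the deposited values 0.076 and 0.0005 for these. Leaving out 1 array gave ranges across 0 for Cyba (-0.42 to 0.017), Duox2 (-0.058 to 0.27), Glrx (-0.013 to 0.093), Gpx3 (-0.11 to 0.051), Gpx4 (-0.017 to 0.065), Hmox1 (-0.072 to 0.060), Nqo1 (-0.022 to 0.26), Nqo2 (-0.15 to 0.12) and Txnrd1 (-0.053 to 0.0097). Trend and robust empirical Bayes added Gclm, Glrx3, Glrx5, Prdx5 and Srxn1. Dim signal limits the splice-spanning Nox4 probe, Duox2, Gpx3 and the second Prdx4 probe.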

Other observations

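Several redox genes that did not pass varied between arrays much as leukocyte markers did. Neutrophil markers had median log2 ratios of AAV_Cre over AAV_Null of -0.31, -0.25, 0.60 and -0.49 on arrays 1 to 4, and macrophage markers -0.33, -0.24, 0.36 and -0.64. Array 3 was the 1 array with a positive median for both. Ncf4, a subunit of the phagocyte oxidase, had -0.44, -0.09, 0.36 and -0.68 on the same arrays, and Hpx, which binds haem, had -0.80, -0.69, 0.70 and -0.93. Their SE of 0.19 and 0.27 were among the widest of the lists, against a median of 0.063 over all genes. These genes were picked after their values were seen, and no relation was tested over 4 arrays.

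Erythroid markers, which bear on Prdx2, Cat and Gpx1 as genes that red cell precursors also express, had medians of -0.30, 0.21, -0.65 and -0.11 on arrays 1 to 4, with 0 of 6 called. Prdx2 had -0.24, -0.28, 0.027 and 0.18 on the same arrays. By Dixon's criterion, 0 of 50 members and named list genes had a value on 1 array that stood apart, where chance gives about 2.5.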
